A study of Mus musculus with 20 samples.

Results

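The insulin-like growth factor (IGF) axis was followed here through the stromal, vascular and macrophage cells of mouse interscapular brown adipose tissue (iBAT). It was taken as 9 genes: the ligand Igf1, the receptors Igf1r and Igf2r, and the binding proteins Igfbp2, Igfbp3, Igfbp4, Igfbp5, Igfbp6 and Igfbp7. The members were found by symbol, each matching 1 of the 31053 gene rows. The stromal vascular cells of each experiment had been split with magnetic beads into cells that carry immune lineage markers (Lin+) and cells that lack them (Lin-), and 10 experiments gave 20 droplet single-cell libraries. Male C57BL/6J mice made up 3 groups of 2 experiments each: housing at room temperature (RT, about 24 °C), cold exposure at 6 °C lasting 4 days (COLD), and the β3 adrenergic agonist CL316,243 delivered by osmotic pump at 0.75 nmol per hour over the same period (CL). Female mice of a second line all carried floxed Adrb1 alleles (Adrb1 fl/fl) and had all received tamoxifen. They lacked (WT, Pdgfra-CreER -/-) or carried (KO, Pdgfra-CreER +/-) a tamoxifen-inducible Cre, named CreERT2 in the study's methods, that is driven by Pdgfra, a gene of stromal cells. These mice were kept at RT or in the cold for 4 days, with 1 experiment per group, so their values carry no test. Each experiment pooled 3 to 4 mice aged 8 to 14 weeks. The RT libraries of the Adrb1 line were made with version 3 of the kit and all others with version 2, so that within this line kit and temperature cannot be told apart.

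IGF1 is a secreted growth factor that signals through the receptor tyrosine kinase IGF1R and promotes growth, survival and differentiation, including that of adipocytes. IGF2R, the cation-independent mannose-6-phosphate receptor, carries lysosomal enzymes and clears IGF2 from the cell surface. The high-affinity binding proteins IGFBP2 to IGFBP6 hold IGFs in the extracellular space, prolong their half-life and restrict or present them to the receptor, until proteases such as PAPP-A, ADAM12 and HTRA1 cleave them. IGFBP7 is a related secreted protein of the vessel wall with low affinity for IGFs. In adipose tissue both stromal cells and macrophages are known sources of local IGF1.

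After filtering, 66339 of 89637 Lin- barcodes and 59935 of 67122 Lin+ barcodes were kept, with 7857161 to 41979839 counts per library. The Lin- library of RT replicate 2 kept 6171 of 22072 barcodes (28.0%). The Lin+ and Lin- libraries of CL replicate 2 shared 1098 cell barcodes (17.1% of the smaller library), and without them no count of members called by treatment in a class changed. Levels are given in CPM: the counts of a gene summed over the cells of a class in a library, scaled by the total count of that class to a common sum. Adrb1 itself was sparse: in ASC1-like cells it was at 6.03 and 3.34 CPM in the WT libraries (RT, COLD) and at 0 and 0.277 CPM in the KO libraries, while in MAC-like cells, a class outside the stromal target of the Cre, it was at 7.29 and 1.56 CPM in WT and 18.1 and 4.05 CPM in KO.

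Cells were clustered without the 9 members, so that the levels below did not shape the classes. The classes were adipose stromal cells of 3 subtypes (ASC1-like, 12127 cells; ASC2-like, 9580; ASC3-like, 7297), vascular endothelial cells (VEC-like, 11723), mural cells (3842, of which 1934 were pericyte-like and 1908 vascular smooth muscle or VSMC-like) and macrophages of the Lin+ fraction (MAC-like, 9595). A further 6 Lin- clusters were named as ASCs by their markers but had no subtype name (clusters 6, 8, 9, 16, 26 and 27, with 3334, 3010, 2190, 1201, 487 and 444 cells). In 5 of them no subtype had 3 raised markers, and cluster 26 drew 81.3% of its cells from 1 library, above the limit of 60% for a subtype name. These 6 clusters entered no class and no test, and some of their levels are given by cluster number. Cluster 25 (502 cells) had markers of both ASCs and VECs raised, got no name and was left out as well. The macrophage markers Adgre1, Cd68, C1qa, C1qb, C1qc and Csf1r summed to between 6364 and 17440 CPM in MAC-like cells and to no more than 22.7 CPM in ASC1-like cells. The markers of ASCs (Pdgfra, Cd34, Ly6a, Dcn, Col1a1) reached 1826 to 5954 CPM in VEC-like and 650.7 to 2020 CPM in mural cells, and 13.7 to 229.9 CPM in MAC-like cells. Of these, the study reports Cd34 and Ly6a in other stromal vascular subtypes as well. Without the cells in the top 6% of doublet scores, the median of these markers was 13.6% of its former value in pericyte-like cells and 26.0% in VSMC-like cells, against 87.3% in VEC-like and 95.3% in MAC-like cells. Those of the levels used below that went down most are given with both values.

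Each member had its own distribution over the named classes. Igf1 was highest in ASC3-like and MAC-like cells, Igfbp6 and Igfbp5 in ASC2-like cells, Igfbp4 in ASC3-like cells, Igfbp7 in mural and ASC3-like cells, and Igfbp3 in pericyte-like and ASC3-like cells, while Igfbp2 was low in all of them. Neighbouring classes in these orders mostly overlapped over the 10 experiments. The exceptions, for which the ranges did not overlap, were Igfbp6 (ASC2-like above ASC3-like, and ASC3-like above ASC1-like cells), Igfbp5 (VSMC-like above pericyte-like, and VEC-like above MAC-like cells), Igfbp3 (VSMC-like above MAC-like cells) and Igfbp7 (ASC2-like above MAC-like cells). Levels between classes were compared within each experiment on the log2(CPM + 1) scale with a two-sided exact sign-flip permutation test (n = 10), adjusted over the 54 member and class-pair tests. The smallest p this test can give is 0.00195, which became 0.0031 after adjustment, and it is the value meant where a member is said to be higher in 10 of 10 experiments.

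**Figure D1:**
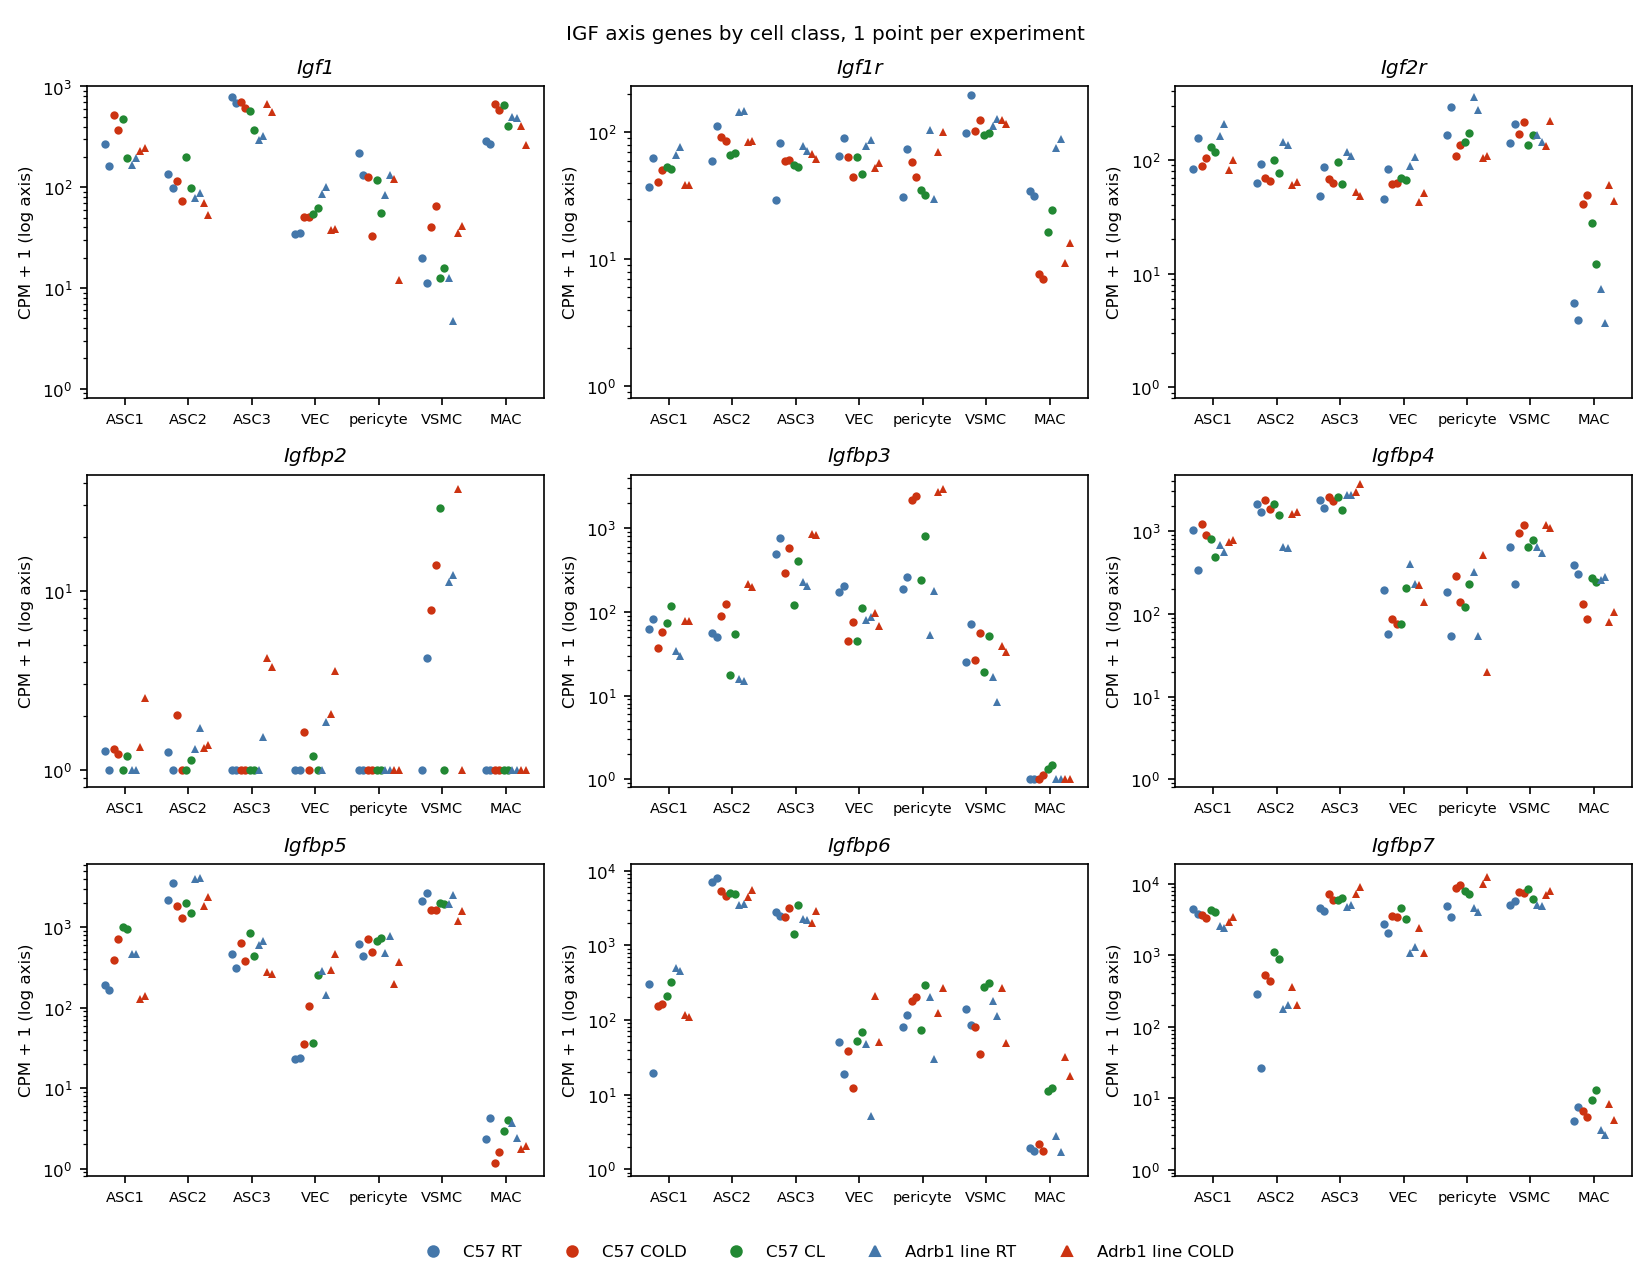
Levels of the 9 members in CPM + 1 (log axis) in 7 classes, 1 panel per member and 1 point per experiment (circles, C57; triangles, Adrb1 line; blue, RT; red, COLD; green, CL). Igfbp6 separates ASC2-like from ASC3-like and ASC3-like from ASC1-like cells with no overlap, Igfbp2 is at or below 3.22 CPM in the plotted classes other than VSMC-like cells, and in MAC-like cells Igfbp3, Igfbp5, Igfbp6 and Igfbp7 stay at or below 30.8 CPM.

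Igf1 was the main ligand measured in these stromal vascular cells, a preparation that leaves out mature adipocytes. Of the other ligands and carriers (Igf2, Ins1, Ins2, Igfbp1, Igfals, Igfbpl1), Igf2 did not exceed 3.40 CPM in VEC-like cells and 0.752 CPM in ASC1-like cells, and was at 0 in MAC-like cells of all 10 experiments. In C57 mice the Igf1 level in ASC3-like cells was 782 and 688 CPM at RT, 699 and 608 CPM in COLD, and 570 and 368 CPM in CL. In MAC-like cells it was 286 and 266 CPM at RT, 667 and 588 CPM in COLD, and 654 and 408 CPM in CL. ASC1-like cells gave 266 and 160 CPM at RT, 525 and 365 CPM in COLD, and 475 and 196 CPM in CL. Thus the RT libraries were the lowest in MAC-like cells with no overlap, whereas in ASC1-like cells RT replicate 1 lay above CL replicate 2, and in ASC3-like cells the RT replicates lay near those of COLD.

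Over all 10 experiments, Igf1 was higher in ASC3-like than in ASC1-like cells by 1.03 ± 0.57 (log2, mean ± SD; 2.04-fold) and higher in ASC1-like than in ASC2-like cells by 1.47 ± 0.60 (2.76-fold), each in 10 of 10 experiments. MAC-like cells of the Lin+ library exceeded the ASC1-like cells of the Lin- library of the same experiment by 1.65-fold, again in 10 of 10. ASC1-like cells exceeded VEC-like cells 5.06-fold and mural cells 5.07-fold. Within VEC-like cells, Igf1 was concentrated in the venous cluster (1214 cells), where it was 211 and 236 CPM at RT, 240 and 225 CPM in COLD and 152 and 149 CPM in CL, against 0 to 35.6 CPM in the arterial cluster. Pericyte-like cells ranged from 10.97 to 218 CPM, and their median went from 118 to 76.2 CPM without the top doublet scores, while that of mural cells together went from 54.2 to 23.3 CPM. T lymphocyte-like and B lymphocyte-like cells, which served as background for cell-free RNA, held 0 to 16 and 0.64 to 33.7 CPM. Monocyte-like cells, outside the tested classes, held 29.3 and 43.7 CPM at RT in C57 mice. They held 181 and 205 CPM in COLD, and 97.1 and 58.7 CPM in CL. In the Adrb1 line they held 45.3 (WT) and 34.4 CPM (KO) at RT against 42.3 and 28.4 CPM in COLD.

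The division of Igf1 counts among the cells was uneven. MAC-like cells made up 6.2% to 34.7% of the Lin+ cells of a library and held 66.0% to 88.2% of its Igf1 counts. In the Lin- libraries of C57 mice, ASC1-like cells held 41.4% and 17.4% of the Igf1 counts at RT, 46.6% and 54.8% in COLD, and 14.0% and 21.6% in CL. ASC3-like cells held 27.2% and 32.3% at RT, 6.85% and 12.6% in COLD, and 15.2% and 26.3% in CL. These shares move with the number of cells captured per class as well as with the level per cell.

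**Figure D2:**
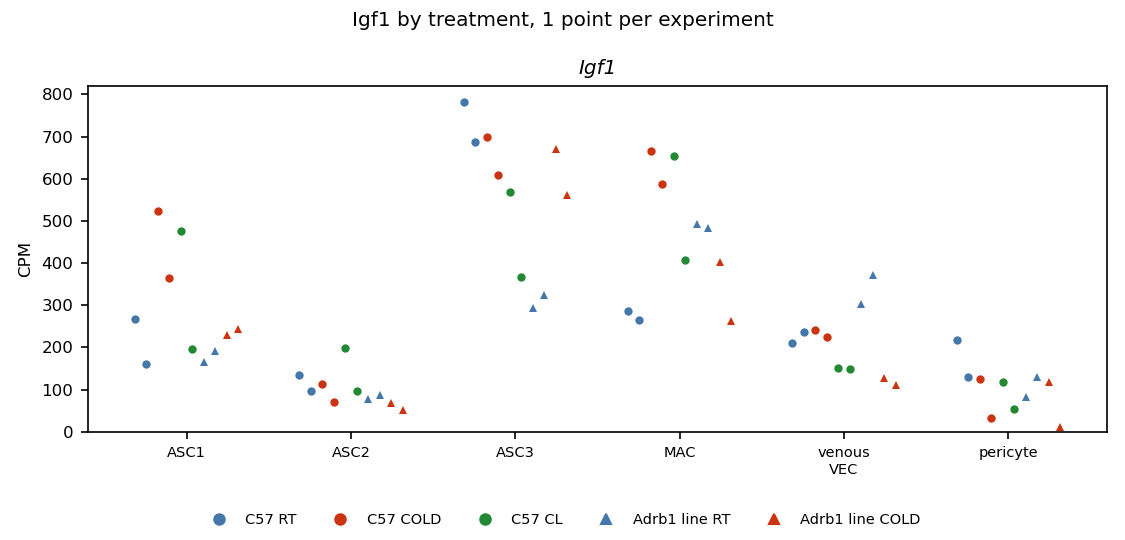
Igf1 level in CPM in ASC1-like, ASC2-like, ASC3-like, MAC-like, venous VEC-like and pericyte-like cells, 1 point per experiment, with groups by treatment and line. In C57 mice the COLD and CL points of MAC-like cells (408 to 667 CPM) lie above both RT points (266 and 286 CPM), whereas in the Adrb1 line the COLD points (404 and 262 CPM) lie below the RT points (494 and 483 CPM).

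Treatment was tested within each class over the 6 C57 libraries with the quasi-likelihood test of edgeR, with p-values adjusted over all genes tested in that class. Igfbp2 was too low to be tested in any class, so 8 of the 9 members were tested in each Lin- class, and 7 in MAC-like cells, where Igfbp3 was too low as well. In the Lin- classes (ASC1-like, ASC2-like, ASC3-like, VEC-like and mural) no member passed an adjusted p of 0.05 in any of 15 comparisons, which held 120 member tests. With the replicate number as a block 1 did (Igfbp3 in mural cells in COLD), where that fit called 58 genes higher and 25 lower of 9946. In the main fit 18 member tests had an unadjusted p under 0.05, for which no share of all genes was taken. DESeq2 called 4: Igfbp5 in ASC1-like cells after COLD and during CL, and Igfbp3 in mural cells in COLD against RT and against CL. Over all genes DESeq2 called 652 higher and 523 lower in COLD and 194 and 89 in CL of 12467 in ASC1-like cells. In mural cells it called 25 and 12 in COLD against RT and 10 and 0 in COLD against CL, of 9946. By edgeR the share of all genes called differed widely between the comparisons. COLD against RT, CL against RT and COLD against CL called 11.3%, 0.93% and 0.112% of genes in ASC1-like cells, 0.894%, 0.101% and 0.175% in ASC2-like cells. ASC3-like cells had 0.0692%, 0.0297% and 0%. In VEC-like cells these shares were 0.185%, 0% and 0%, and in mural cells 0.131%, 0% and 0.0201%. The fitted differences had standard errors of 0.73 to 0.98 (log2) for Igfbp4, Igfbp6 and Igfbp7 in ASC1-like cells after COLD. The RT replicates lay far apart for some members, and the lower was replicate 2, whose Lin- library kept 28.0% of its barcodes. In ASC1-like cells Igfbp4 was at 339 against 1022 CPM and Igfbp6 at 18.6 against 300.2 CPM. Igfbp7 in ASC2-like cells was at 25.8 against 291 CPM, and Igfbp4 in mural cells at 126 against 381 CPM. Without RT replicate 1, replicate 2 was the only RT library, and members then passed in ASC1-like, ASC2-like and mural cells. Those calls rest on that library.

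In ASC1-like cells the fitted Igf1 difference between COLD and RT was 1.08 ± 0.53 (log2, SE; 2.12-fold; adjusted p = 0.224), and that between CL and RT was 0.68 ± 0.53 (adjusted p = 0.652). The class was made of 2 clusters whose shares changed with treatment. Cluster 4 held 96.7% and 94.9% of ASC1-like cells at RT, 7.36% and 6.91% in COLD, and 19.8% and 62.9% in CL, and cluster 0, in which Cxcl9 and Cxcl10 led, held the rest. Within cluster 0, Igf1 was at 134 and 139 CPM at RT, 514 and 362 CPM in COLD, and 482 and 222 CPM in CL. Within cluster 4 it was at 272 and 161 CPM at RT, 728 and 417 CPM in COLD, and 437 and 175 CPM in CL. In both clusters each COLD value lay above both RT values. The RT values of cluster 0 rest on 46 and 53 cells, and the COLD values of cluster 4 on 190 and 151 cells.

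The response of Igf1 itself differed between the ASC subtypes. In ASC2-like cells Igf1 was at 135 and 97.3 CPM at RT, 114 and 71.2 CPM in COLD, and 198 and 96.1 CPM in CL, with a fitted COLD difference of -0.38 ± 0.37 (adjusted p = 0.815). A test of the class by treatment term, with the library as a block, gave a COLD response that was 1.48 ± 0.21 (log2, SE) larger in ASC1-like than in ASC2-like cells (adjusted p = 0.000502), where 7.71% of all genes passed the same test. Against ASC3-like cells the COLD response was larger by 1.34 ± 0.31 (adjusted p = 0.0311, with 5.31% of all genes called), but this call was lost without COLD replicate 1 (adjusted p = 0.179), COLD replicate 2 (0.0954) or RT replicate 2 (0.113). During CL the Igf1 response did not pass in either pair (adjusted p = 0.747 against ASC2-like and 0.222 against ASC3-like cells), where 0.704% and 0.136% of all genes did. The COLD and CL responses share the RT libraries.

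Of the classes tested, MAC-like cells were the one in which members passed the treatment test. Of the 7 members tested, 5 were called in COLD against RT, 3 in CL against RT and 4 in COLD against CL, and DESeq2 gave the same numbers. Over all genes, edgeR called 36.7%, 7.68% and 6.98% in these comparisons, so that a large part of the transcriptome of this class moved as well. DESeq2 called 1744 genes higher and 1640 lower, 510 and 361, and 312 and 446, of 11150. At RT the class was mostly a cluster with Mgl2 and Vcam1 and in COLD mostly MAC1-like cells, whose shares and single values follow, and the differences in this class hold that change of clusters too. Igf1 rose 2.37-fold in COLD (log2 1.24 ± 0.23 SE, adjusted p = 0.00275) and 1.91-fold in CL (0.93 ± 0.23, adjusted p = 0.0386), with all 4 treated libraries above both RT libraries. COLD and CL did not differ in Igf1 beyond the spread (0.31 ± 0.22, adjusted p = 0.419). The CL call was lost in 5 of the 6 fits that each left out 1 library. With single libraries left out, calls of other members in CL against RT and in COLD against CL were lost as well. The number of all genes called in these comparisons also changed widely between those fits.

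Igf2r showed the largest fold of the members in macrophages after COLD. Its level was 4.504 and 2.93 CPM at RT, 40.3 and 47.8 CPM in COLD, and 27.0 and 11.2 CPM in CL, and the 3 groups did not overlap. It rose 12.4-fold in COLD (log2 3.63 ± 0.41, adjusted p = 0.00029) and 5.32-fold in CL (2.41 ± 0.44, adjusted p = 0.0145), and COLD exceeded CL 2.33-fold (adjusted p = 0.0295). In MAC1-like cells alone, the cluster that made up most of the class in COLD but little of it at RT, the differences were 2.48-fold in COLD (log2 1.31 ± 0.75, adjusted p = 0.652) and 1.36-fold in CL (0.45 ± 0.83, adjusted p = 0.878), with 1 RT library. T lymphocyte-like cells held 26.0 and 30.3 CPM of Igf2r at RT, 17.8 and 14.9 CPM in COLD, and 45.9 and 22.4 CPM in CL. The macrophage levels of the same libraries were thus below theirs at RT and in CL, and above them in COLD. Over all experiments T lymphocyte-like cells held 14.9 to 69.0 CPM. B lymphocyte-like cells, the other background class, held 1.78 to 17.2 CPM.

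Igf1r moved in the other direction. In MAC-like cells it was at 33.7 and 30.8 CPM at RT, 6.71 and 6.03 CPM in COLD, and 15.4 and 23.4 CPM in CL, again with no overlap between the groups. It was 0.209-fold in COLD (log2 -2.26 ± 0.28, adjusted p = 0.000463), and the CL difference of -0.74 ± 0.27 did not pass (adjusted p = 0.112). COLD was lower than CL as well (log2 -1.51 ± 0.28, adjusted p = 0.0126). The call in COLD against RT held in each of the 6 fits that left out 1 library, as it did for Igf1, Igf2r and Igfbp4. In MAC1-like cells alone Igf1r was at 33.7 CPM in the RT library against 6.20 and 5.92 CPM in COLD (log2 -2.30 ± 0.74, adjusted p = 0.399).

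Among the binding proteins, Igfbp4 had the highest level in MAC-like cells. It was at 393 and 297 CPM at RT, 130 and 86.3 CPM in COLD, and 271 and 241 CPM in CL. T lymphocyte-like cells held 145 to 354 CPM over the experiments, above the macrophage levels in COLD. B lymphocyte-like cells, the other background class, held 2.24 to 22.9 CPM, below those levels. It fell to 0.327-fold in COLD against RT (log2 -1.61 ± 0.24, adjusted p = 0.000963) and was lower in COLD than in CL (-1.19 ± 0.23, adjusted p = 0.0168), while CL and RT did not differ beyond the spread (-0.43 ± 0.23, adjusted p = 0.264). In MAC1-like cells alone it was at 210 CPM in the RT library against 116 and 77.3 CPM in COLD (-0.95 ± 0.35, adjusted p = 0.457). In the Mgl2 cluster, most of the class at RT, the direction was the opposite, with 338 and 278 CPM at RT against 474 CPM in the COLD library that could be used (0.37 ± 0.34, adjusted p = 0.759). Igfbp5 (0.182 to 3.29 CPM) and Igfbp6 (0.694 to 30.8 CPM) were called at low levels, where T lymphocyte-like cells, which should lack it, held 0 to 8.31 CPM of Igfbp6. Igfbp5 fell in COLD from 1.33 and 3.29 CPM to 0.182 and 0.617 CPM (adjusted p = 0.0327), a call that was lost in 4 of the 6 fits that left out 1 library. T lymphocyte-like cells held 0 to 4.07 CPM of Igfbp5, so these levels lay within the background and are not read as expression. Igfbp6 was at 0.901 and 0.734 CPM at RT and at 10.1 and 11.4 CPM in CL (log2 3.68 ± 0.52, adjusted p = 0.00598). The RT values lay within the range of T lymphocyte-like cells and the CL values just above its top of 8.31 CPM. This difference is therefore not read as a change in macrophage expression. The ASC markers summed in MAC-like cells to 26.0 and 35.8 CPM at RT, 87.1 and 147 CPM in COLD, and 229.9 and 105.9 CPM in CL, and their part in the Igfbp6 result was not tested.

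The macrophages compared were not the same clusters in each group. MAC1-like cells, a cluster with Gpnmb and Trem2 among its markers (6390 cells), made up 1.897% and 3.799% of MAC-like cells at RT, 93.6% and 97.0% in COLD, and 72.9% and 49.5% in CL. A cluster with Mgl2 and Vcam1 (2355 cells) had 5 of the 6 macrophage markers raised, but none among its top 10 genes, where Vcam1, also on the venous endothelial list, stood. It made up 83.1% and 87.0% at RT, 3.82% and 1.13% in COLD, and 12.0% and 36.6% in CL. Igf1 in MAC1-like cells was 406 CPM at RT (1 library, the other having fewer than 20 such cells), 669 and 596 CPM in COLD, and 671 and 438 CPM in CL. In the Mgl2 cluster it was 277 and 243 CPM at RT, 565 CPM in the COLD library that could be used, and 653 and 367 CPM in CL. In these 2 clusters each treated value lay above the RT values of the same cluster, but the MAC1 markers summed to 1222 CPM in the 28 MAC1-like cells of that RT library against 9482 and 10210 CPM in COLD. In the remaining cluster, MAC2-like cells (850 cells), Igf1 was at 384 and 410 CPM at RT, 644 and 266 CPM in COLD, and 549 and 374 CPM in CL, so that the groups overlapped.

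With the clusters tested alone, a choice made after seeing the data, no member was called against RT. These tests had 1 RT library in MAC1-like cells (28 cells) and 1 COLD library in the Mgl2 cluster (63 cells), each assumed to vary like the other groups, so they made few calls over all genes and the lack of calls says little. In MAC1-like cells Igf1 differed by 0.83 ± 0.29 (log2, SE) in COLD (adjusted p = 0.448), and 0.00874% of all genes were called in COLD against RT and 0% in CL against RT. In the Mgl2 cluster, Igf1 differed by 0.87 ± 0.33 in COLD (adjusted p = 0.455) and 0.81 ± 0.27 in CL (adjusted p = 0.312), where 0.151% and 0.281% of genes were called, and 0.0432% in COLD against CL. In COLD against RT, MAC1-like cells also differed by -2.30 ± 0.74 (log2, SE) in Igf1r and by -0.95 ± 0.35 in Igfbp4, against 1 RT library. In the Mgl2 cluster in CL, edgeR gave 3 members at an unadjusted p of 0.05 (Igf1, Igfbp6, Igfbp7). No share of all genes was taken at that threshold, so this number says little about the members. In MAC1-like cells COLD was lower than CL for Igf1r (log2 -1.24 ± 0.24, adjusted p = 0.0341), Igfbp4 (-0.999 ± 0.20, adjusted p = 0.0404) and Igfbp6 (-3.30 ± 0.36, adjusted p = 0.00679), beside 3.98% of all genes. The Igfbp6 call is not read as a change in macrophage expression, as its values in MAC-like cells in CL lay just above the range of T lymphocyte-like cells. Igf2r in MAC1-like cells was at 20.5 CPM in the RT library, 41.7 and 48.4 CPM in COLD, and 31.3 and 17.2 CPM in CL, and over all experiments it ranged from 4.66 to 67.2 CPM. In the Mgl2 cluster it ranged from 0 to 6.75 CPM, which overlaps that range at its low end.

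**Figure D3:**
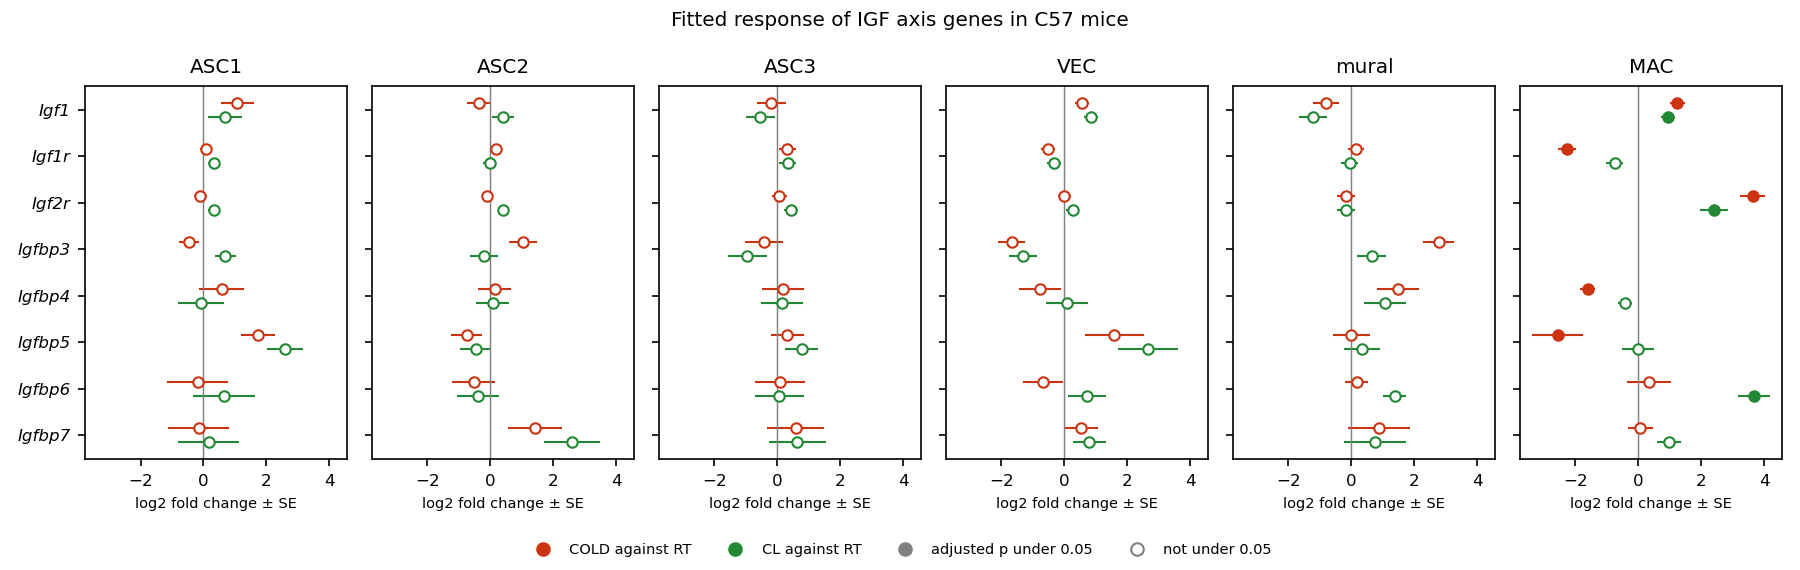
Fitted log2 differences (± SE) of the members in COLD and in CL against RT in 6 classes of C57 mice, with filled symbols for an adjusted p under 0.05. All filled symbols are in MAC-like cells, with Igf2r at 3.63 and Igf1r at -2.26 in COLD, and the mural Igfbp3 difference in COLD (2.78 ± 0.49) and the ASC1-like Igfbp5 difference in CL (2.59 ± 0.56) are open.

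The receptors varied less among the Lin- classes than the binding proteins did. Among the named ASC, endothelial and mural classes, Igf1r was highest in VSMC-like cells (94.2 to 196 CPM, median 114) and ASC2-like cells (58.3 to 147 CPM). It was lower in ASC1-like cells (36.5 to 76.3 CPM). Schwann-like cells, outside these classes and not tested, held 87.2 to 244 CPM of Igf1r, a range that encloses that of VSMC-like cells. ASC2-like cells exceeded ASC1-like cells 1.80-fold and ASC3-like cells 1.51-fold, both in 10 of 10 experiments, whereas ASC1-like and ASC3-like cells did not differ beyond the spread (-0.25 ± 0.36 SD, adjusted p = 0.0688). Igf2r was highest in VSMC-like cells (130 to 220 CPM) and pericyte-like cells (102 to 354 CPM). Among the ASCs, ASC1-like cells had the most Igf2r (80.6 to 204 CPM), 1.42-fold more than ASC2-like and 1.65-fold more than ASC3-like cells, each in 10 of 10. In pericyte-like cells Igf2r was at 165 and 292 CPM at RT, 107 and 133 CPM in COLD and 143 and 170 CPM in CL, and the COLD difference of -0.81 ± 0.30 did not pass (adjusted p = 0.410). Igf2r lies on mm10 chromosome 17 (12682406 to 12769664, minus strand) and overlaps the noncoding Airn on the plus strand, which also had the pattern over classes most like that of Igf2r (Pearson r = 0.91 over 70 sums).

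Igfbp3, a high-affinity carrier, showed its widest range in pericytes. Pericyte-like cells held 188 and 257 CPM at RT, 2169 and 2386 CPM in COLD, and 238 and 801 CPM in CL. Both COLD libraries lay far above the other 4. VSMC-like cells, the other part of the mural class, stayed between 7.29 and 70.9 CPM in all 10 experiments, with a median of 28.7 CPM that was 17.0 CPM without the top doublet scores. In the test of mural cells together the COLD difference was 2.78 ± 0.49 (log2, SE; 6.88-fold) with an adjusted p of 0.0876. With the replicate number as a block it was 2.75 and passed (adjusted p = 0.0353), where 58 genes were called higher and 25 lower. In pericytes alone, a choice made after seeing the data, it was 3.43 ± 0.69 (10.8-fold; adjusted p = 0.0743), where 0.506% of genes were called. CL gave 1.38 on the log2 scale in pericytes (adjusted p = 0.678), where 0.0274% of genes were called. Without the top doublet scores the pericyte levels were 200.1 and 270.8 CPM at RT against 2827 and 2813 CPM in COLD.

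In arterial and capillary endothelial cells the order was the opposite. Arterial VEC-like cells held 333 and 455 CPM of Igfbp3 at RT, 75.3 and 112 CPM in COLD, and 102 and 225 CPM in CL. Capillary VEC-like cells held 118 and 121 CPM at RT, 30.2 and 42.5 CPM in COLD, and 33.3 and 66.9 CPM in CL. In both, all 4 treated libraries lay below both RT libraries. Venous VEC-like cells held 34.3 and 48.2 CPM at RT, 14.1 and 52.8 CPM in COLD, and 22.8 and 54.8 CPM in CL, with overlap. The ASC markers summed in VEC-like cells to 2669 and 1837 CPM at RT, 5081 and 5954 CPM in COLD, and 2697 and 3707 CPM in CL. This sum holds Cd34 and Ly6a, which the study also found outside ASCs, so it does not measure ASC RNA alone. Without the top doublet scores its median was 98.7% of its former value in capillary and 93.0% in arterial cells. The part of ASC RNA in the Igfbp3 values was not tested. Over VEC-like cells as a whole the COLD difference of -1.66 ± 0.43 (log2, SE) did not pass (adjusted p = 0.281), nor did that of CL (-1.31 ± 0.44, adjusted p = 0.551). This class holds cluster 14 (1466 cells), which drew 78.4% of its cells from CL replicate 1. Cidea, Cox8b and Ucp1 were among the top 10 genes of that cluster, and its part in the VEC-like values was not tested. With CL replicate 1 or CL replicate 2 left out, the COLD difference of VEC-like cells changed its side of the threshold. That of CL did so without CL replicate 2. Each of these fits left 1 CL library, and the number of all genes called rose in them as well. These changes are therefore not read as results about Igfbp3. In capillary cells alone, a choice made after seeing the data, Igfbp3 fell to 0.297-fold in COLD (-1.75 ± 0.31, adjusted p = 0.0216), where 1.06% of genes were called, and CL gave -1.60 ± 0.31 (adjusted p = 0.0676), where 0.321% were. In arterial cells alone the COLD difference was -1.98 ± 0.39 (adjusted p = 0.1497), where 0.0625% of genes were called.

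**Figure D4:**
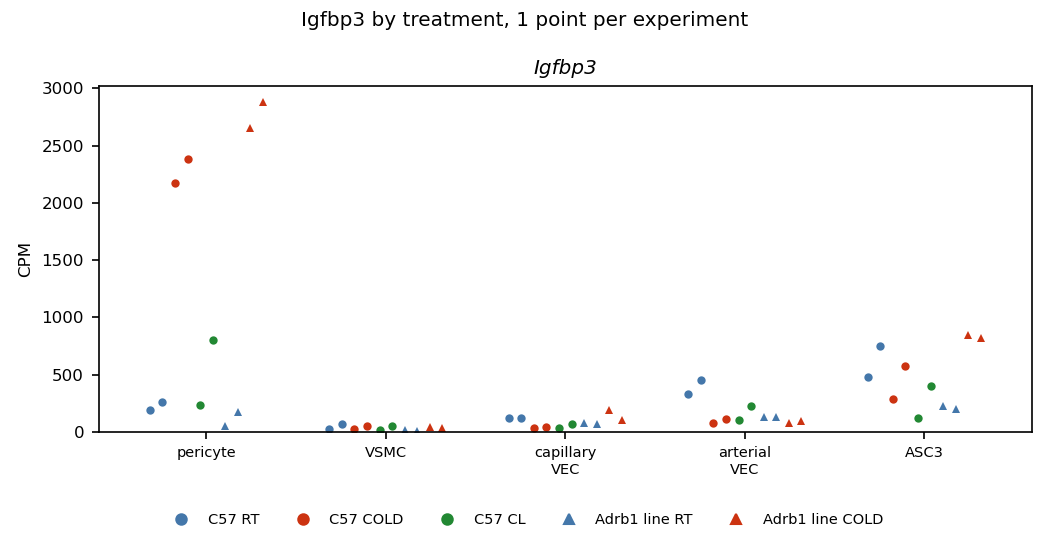
Igfbp3 level in CPM (linear axis) in pericyte-like, VSMC-like, capillary and arterial VEC-like and ASC3-like cells, 1 point per experiment. The 4 COLD experiments of both lines lie between 2169 and 2876 CPM in pericyte-like cells, above all RT and CL experiments (52.2 to 801 CPM), while in arterial cells of C57 mice the RT points (333 and 455 CPM) are the highest.

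Among the 3 named ASC subtypes Igfbp3 was highest in ASC3-like cells (482 and 752 CPM at RT, 289 and 574 CPM in COLD, 118 and 401 CPM in CL), 6.63-fold above ASC1-like and 7.07-fold above ASC2-like cells in 10 of 10 experiments each. Cluster 16 (1201 cells), an ASC cluster with no subtype, held more, at 748 and 1120 CPM at RT, 1177 and 1277 CPM in COLD, and 323 and 723 CPM in CL, and up to 2292 CPM in the Adrb1 line. ASC1-like and ASC2-like cells did not differ over all experiments (0.09 ± 1.30 SD, adjusted p = 0.814), but their COLD responses did. ASC2-like cells held 54.8 and 48.7 CPM at RT against 87.8 and 122 CPM in COLD. ASC1-like cells held 60.7 and 81.8 CPM at RT against 35.7 and 55.7 CPM in COLD. The response was 1.49 ± 0.22 (log2, SE) smaller in ASC1-like cells (adjusted p = 0.000738, with 7.71% of all genes called), although neither subtype passed alone (adjusted p = 0.391 in ASC1-like and 0.449 in ASC2-like cells). The clusters of ASC1-like cells were ordered in opposite ways. In cluster 4, most of the class at RT, Igfbp3 was at 61.0 and 82.1 CPM at RT against 108 and 204 CPM in COLD. In cluster 0, most of the class in COLD, it was at 52.1 and 75.7 CPM at RT against 31.8 and 48.1 CPM in COLD. The part of the change in make-up in this difference was not tested. ASC1-like cells of the Adrb1 line held 33.3 (WT) and 28.2 CPM (KO) at RT against 76.3 and 76.9 CPM in COLD.

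Of the 3 named ASC subtypes, Igfbp5 and Igfbp6 were highest in ASC2-like cells, the subtype with Pi16 and Dpp4 among its markers. Igfbp6, a carrier with a preference for IGF2, was at 6977 and 8045 CPM in ASC2-like cells at RT, 5301 and 4609 CPM in COLD, and 4973 and 4941 CPM in CL. The ASC2-like level was 28.6-fold above that of ASC1-like cells and 2.06-fold above that of ASC3-like cells (1397 to 3428 CPM), in 10 of 10 experiments. ASC1-like cells held 300.2 and 18.6 CPM at RT, 153 and 162 CPM in COLD and 207 and 317 CPM in CL, so the 2 RT libraries differed more than any treatment. The fitted COLD difference turned from -0.18 to 3.57 on the log2 scale without RT replicate 1, which left replicate 2, at 18.6 CPM, as the only RT library. The Igfbp6 level of pericyte-like and VSMC-like cells (medians of 150 and 125 CPM) went to 26.8 and 20.3 CPM without the top doublet scores. Cluster 27 (444 cells) had 4 of the 5 ASC markers raised but none among its top 10 genes, which Sfrp5 and Angptl7 led and which held Spp1, also on the MAC1 list. It held 17521 and 19306 CPM of Igfbp6 at RT against 11459 and 15434 CPM in COLD. In the CL library that could be used it held 4340 CPM, below the ASC2-like cells of the same experiment, and in WT mice at RT 4294 CPM. Igfbp6 reached 6984 CPM in cluster 9. Neither treatment passed in ASC2-like cells (adjusted p = 0.869 in COLD and 0.918 in CL).

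Igfbp5, which binds matrix as well as IGFs, was at 2181 and 3504 CPM in ASC2-like cells at RT, 1834 and 1297 CPM in COLD, and 2005 and 1487 CPM in CL. VSMC-like cells had a like level (1200 to 2697 CPM), cluster 9 reached 5018 CPM, and ASC2-like cells exceeded ASC1-like cells 6.43-fold and ASC3-like cells 5.02-fold in 10 of 10 experiments. In ASC1-like cells Igfbp5 was at 192 and 164 CPM at RT, 392 and 705 CPM in COLD, and 1000 and 946 CPM in CL, and the 3 groups did not overlap. Their fitted differences from RT were 1.72 ± 0.55 (log2, SE; 3.31-fold; adjusted p = 0.0777) in COLD and 2.59 ± 0.56 (6.04-fold; adjusted p = 0.0891) in CL. The difference between the subtypes passed: the response in ASC1-like cells exceeded that in ASC2-like cells by 2.47 ± 0.56 in COLD (adjusted p = 0.0134) and by 3.11 ± 0.56 in CL (adjusted p = 0.0166). Of all genes, 7.71% passed this test in COLD and 0.704% in CL. The COLD call was lost without COLD replicate 2 (adjusted p = 0.244), and the CL call without CL replicate 1 or 2 (0.115 and 0.106).

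The clusters within ASC1-like cells gave a different picture for Igfbp5 than for Igf1. In cluster 0, Igfbp5 was at 528 and 584 CPM at RT, 393 and 717 CPM in COLD, and 976 and 1334 CPM in CL. In cluster 4 it was at 179 and 140 CPM at RT, 364 and 486 CPM in COLD, and 1139 and 630 CPM in CL. At RT the class was almost wholly cluster 4, the cluster with the lower Igfbp5 level there, and in COLD almost wholly cluster 0, in which the COLD and RT values overlapped. The part of this change in make-up in the COLD difference was not tested. In CL both clusters lay above their own RT values.

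**Figure D5:**
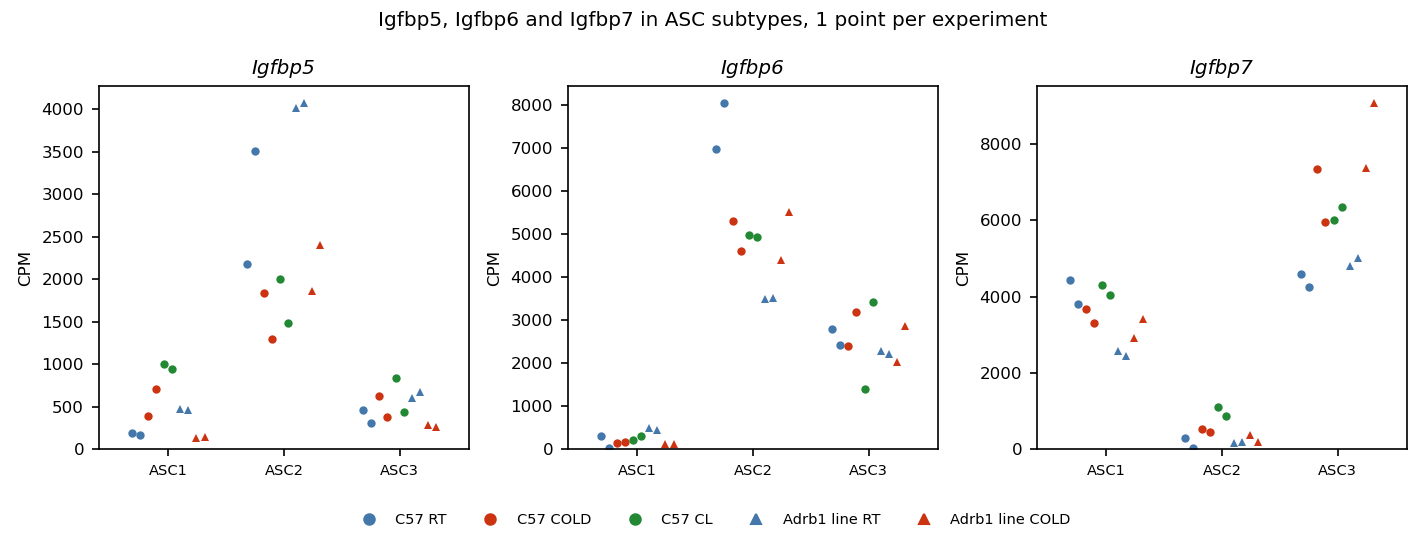
Levels of Igfbp5, Igfbp6 and Igfbp7 in CPM in ASC1-like, ASC2-like and ASC3-like cells, 1 point per experiment. Igfbp6 in ASC2-like cells (3490 to 8045 CPM) lies above ASC3-like and ASC1-like cells throughout, and Igfbp7 in ASC2-like cells (25.8 to 1116 CPM) lies below both other subtypes.

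Igfbp4, which PAPP-A cleaves, was highest in ASC3-like cells (1798 to 3652 CPM), 3.54-fold above ASC1-like and 1.66-fold above ASC2-like cells in 10 of 10 experiments. ASC1-like cells were lower than ASC2-like cells in 9 of 10 experiments (0.47-fold; adjusted p = 0.00586). In ASC1-like cells it was at 1022 and 339 CPM at RT, 1213 and 888 CPM in COLD, and 807 and 487 CPM in CL, so the RT libraries enclosed the CL libraries. VSMC-like cells held 227 to 1171 CPM. The median of pericyte-like cells, 159 CPM, was 78.9 CPM without the top doublet scores. Pappa was at 30.8 to 162 CPM in ASC1-like cells.

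Igfbp7 was at 5000 and 3480 CPM in pericyte-like cells at RT, 8926 and 9686 CPM in COLD, and 7987 and 7361 CPM in CL, with both RT libraries below the treated ones. VSMC-like (4890 to 8420 CPM) and ASC3-like cells (4261 to 9067 CPM) were in the same range. The mural COLD difference of 0.88 ± 0.98 (log2, SE) did not pass (adjusted p = 0.890). ASC1-like cells exceeded ASC2-like cells 11.7-fold and ASC3-like cells exceeded ASC2-like cells 20.2-fold, both in 10 of 10 experiments. In ASC2-like cells Igfbp7 was at 291 and 25.8 CPM at RT, 530 and 439 CPM in COLD, and 1116 and 877 CPM in CL, and CL gave 2.59 ± 0.89 (unadjusted p = 0.015, adjusted p = 0.609 by edgeR). MAC-like cells held 2.04 to 11.9 CPM.

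Igfbp2 was low in every named class. It reached 35.8 CPM in VSMC-like cells of WT mice in COLD and ranged there from 0 to 28.0 CPM in C57 mice, with no order by treatment (0 and 3.23 CPM at RT, 6.78 and 12.9 CPM in COLD, 28.0 and 0 CPM in CL). It was at 0 in pericyte-like and MAC-like cells of all experiments and did not exceed 3.22 CPM in any of the 3 named ASC subtypes or in VEC-like cells as a whole, with 4.76 and 5.25 CPM in the venous cluster of WT and KO mice in COLD. Among the classes and clusters whose levels were taken, the highest Igfbp2 level was that of cluster 9, an ASC cluster with no subtype. It was at 24.7 CPM in WT and 144 CPM in KO mice in COLD, against 0 to 0.466 CPM in its other experiments. Epithelial cells were not among them. Igfbp2 and Igfbp5 lie side by side on mm10 chromosome 1, Igfbp2 on the plus strand (72824503 to 72852474) and Igfbp5 on the minus strand (72857932 to 72874884), with 5458 bases between their facing 3′ ends.

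The remaining members lie apart in the mm10 genome. Igf1 is on chromosome 10 (87858265 to 87937042, plus strand, overlapped by the antisense Igf1os), Igf1r on chromosome 7 (67952827 to 68233668, plus) and Igfbp6 on chromosome 15 (102144362 to 102149511, plus). Igfbp3 and Igfbp4 are both on chromosome 11 (7206086 to 7213923, minus, and 99041244 to 99054392, plus). Igfbp7 is on chromosome 5 (77349240 to 77408041, minus) and overlaps Polr2b and Gm34648 on the plus strand.

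In the Adrb1 line, each group was 1 experiment, and the values are given as WT and KO side by side. Igf1 in ASC1-like cells was 166 (WT) and 192 CPM (KO) at RT and 229 and 243 CPM in COLD. Igfbp3 in pericyte-like cells was 52.2 and 175 CPM at RT against 2650 and 2876 CPM in COLD, so that COLD was above RT in this line too. Igf2r in MAC-like cells was 6.39 and 2.67 CPM at RT against 59.6 and 42.6 CPM in COLD, and Igf1r there was 74.6 and 87.8 CPM at RT against 8.43 and 12.4 CPM in COLD.

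Other members were ordered differently in this line than in C57 mice. Igf1 in MAC-like cells was 494 and 483 CPM at RT against 404 and 262 CPM in COLD, with RT above COLD. Igfbp5 in ASC1-like cells was 471 and 461 CPM at RT against 127 and 139 CPM in COLD, again with RT above COLD. Igfbp3 in capillary VEC-like cells was 73.1 and 65.7 CPM at RT against 188 and 102 CPM in COLD. Without the top doublet scores these values were 71.7 and 66.0 CPM against 117 and 108 CPM. MAC1-like cells made up 38.9% and 36.4% of MAC-like cells at RT and 83.8% and 70.7% in COLD. The MAC1 markers (Gpnmb, Trem2, Spp1, Fabp5, Mmp12) summed in these cells to 413 and 336 CPM at RT and to 11250 and 7221 CPM in COLD. Cluster 4 made up 53.1% and 51.6% of ASC1-like cells at RT and 30.1% and 26.1% in COLD. Sex and line, and at RT the kit as well, differ together between these mice and C57 mice and cannot be told apart. The processing differed as well, as cells were aligned over 6 cohorts for clustering. C57 libraries with the same replicate number shared a cohort, while each WT or KO experiment was a cohort of its own. RT and COLD were thus always in separate cohorts in this line only. The part of this alignment in the shares and orders above was not tested.

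Of the other genes of the pathway, few were called in ASC1-like cells. Among 9 proteases and inhibitors that act on IGFBPs, 6 were tested and 1 rose in COLD and in CL: Adam12, a metalloprotease that cleaves IGFBP3 and IGFBP5. It was at 34.1 and 29.4 CPM at RT, 167 and 162 CPM in COLD, and 196 and 92.9 CPM in CL, with log2 differences of 2.42 ± 0.34 (5.37-fold; adjusted p = 0.00424) and 2.23 ± 0.35 (4.70-fold; adjusted p = 0.0284). All 4 treated libraries lay above both RT libraries. Among 17 genes of insulin and IGF receptor signalling, all tested, none rose and 1 fell in COLD: Pik3r1, the regulatory subunit of PI3-kinase, from 165 and 202 CPM to 81.3 and 72.0 CPM (log2 -1.12 ± 0.21, adjusted p = 0.0134). Among 6 genes of growth hormone input, all tested, 2 fell in COLD: the receptor Ghr, from 73.4 and 107 CPM to 46.3 and 47.7 CPM (-0.76 ± 0.16, adjusted p = 0.0194), and the transcription factor Stat5b, from 31.3 and 52.3 CPM to 24.1 and 23.3 CPM (-0.61 ± 0.16, adjusted p = 0.0427). These counts stand beside the 11.3% of all genes called in ASC1-like cells in COLD and the 0.93% called in CL. The median log2 differences of the 3 lists in COLD were -0.14, -0.29 and -0.02, against 0.01 over all genes tested, and in CL they were 0.03, 0.04 and -0.23 on the log2 scale.

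In MAC-like cells in COLD, 4 of the 13 tested genes of insulin and IGF receptor signalling fell and none rose, with a median of -0.43 against -0.01 over all genes tested, of which 36.7% were called. They were Insr (log2 -1.02 ± 0.36, adjusted p = 0.0467), Irs2 (-0.95 ± 0.33, adjusted p = 0.0446), Pik3r1 (-0.62 ± 0.21, adjusted p = 0.0385) and Foxo1 (-1.08 ± 0.30, adjusted p = 0.0177). Of the proteases, 1 of 2 tested rose, Htra1, which remained below 9.71 CPM. Of the genes of growth hormone input, 4 were tested and 1 fell, Stat5b (-0.92 ± 0.20, adjusted p = 0.00579), with a list median of -0.73.

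Over 70 sums (7 classes in 10 experiments), the genes whose levels followed a member most closely differed from member to member. For Igf1 they were the lysosomal genes Ctsh (Pearson r = 0.85), Hexa and Ctsz, and for Igfbp6 Pcolce2 (r = 0.96), Scara5 and Mfap5. Igfbp5 went with Meis2 (r = 0.94), Sspn and Vasn, Igfbp7 with Emp2 (r = 0.95), Sparcl1 and Ntf3, and Igfbp3 with Ginm1 (r = 0.91), Laptm4a and Hic1. Igfbp4 went with Tcea3 (r = 0.85), Cpq and Gabra3, Igf2r with Airn, Tead1 and Cald1, and Igfbp2 with the smooth muscle genes Actg2 (r = 0.72) and Cnn1, and with P2rx1. The sums share libraries and class composition, so these values describe likeness only.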

How the data were processed

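The authors aligned the reads to mm10 with Cell Ranger 3.0.1 and corrected the UMI counts for cell-free mRNA with SoupX, with Fabp4 and Car3 set as the non-expressed genes. The deposited matrices therefore hold expected counts, with 97.2% to 99.6% of the non-zero entries per library not whole, and sums were rounded to whole numbers here. Cells with under 10% mitochondrial counts and under 15000 counts were kept (Lin+, under 4000 genes; Lin-, over 100 genes). Each fraction was clustered with scanpy 1.11.5 and leidenalg 0.10.2 (2000 variable genes, 30 principal components, 30 neighbours, resolution 1) without the members, the pathway lists and the naming markers, which gave 30 Lin- and 27 Lin+ clusters, named by markers. For this clustering, cells were aligned over 6 cohorts, which were formed differently in the lines, as given above. No doublets were removed, except in an alternative without the top 6% of Scrublet scores per library. Counts were summed per library and class and tested with edgeR 4.0.16 (TMM, filterByExpr, glmQLFTest, two-sided, Benjamini-Hochberg over all genes tested, threshold 0.05) in R 4.3.3, with DESeq2 1.42.0 as an alternative. The test was checked on simulated data. Level differences used an exact sign-flip test over experiments with at least 20 cells per class.

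The members and lists were chosen with earlier results of these data known. By rule, all members were named, as were the genes of the other lists called in ASC1-like cells and the 3 genes most correlated with each member (for Igf1r these are not reported here). The genes of those lists named in MAC-like cells, and Igf2 and Pappa, were chosen after their values were seen. Replicates were pools from separate experiments, and their summed counts differed by more than sampling noise (chi-square divided by its degrees of freedom, 5.0046 to 67.2). RT and COLD libraries of the same number came, by the study's methods, from the same replicate experiment. Same-numbered deviations correlated at 0.0969 to 0.244 between RT and COLD and at -0.06 to 0.077 between RT and CL, and the fit with that number as a block was an alternative. Gene coordinates are from GENCODE on mm10.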

Additional observations from a re-analysis of the deposited data

Results flagged for a closer look

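In 5 cases the response to a treatment differed between ASC subtypes by the class by treatment term of edgeR, over the 6 C57 Lin- libraries. Of all genes, 7.71% in COLD and 0.704% in CL passed for ASC1-like minus ASC2-like cells, and 5.31% and 0.136% for ASC1-like minus ASC3-like cells. The COLD response of Igf1 was larger in ASC1-like than in ASC2-like cells by 1.48 (log2; SE 0.21; adjusted p = 0.000502) and larger than in ASC3-like cells by 1.34 (SE 0.31; adjusted p = 0.0311), the latter a call lost without COLD replicate 1, COLD replicate 2 or RT replicate 2. Igf1 in COLD lay above RT in both clusters of ASC1-like cells, as given above. The COLD response of Igfbp3 in ASC1-like cells minus that in ASC2-like cells was -1.49 (SE 0.22; adjusted p = 0.000738). Within ASC1-like cells Igfbp3 lay above RT in COLD in cluster 4 and below it in cluster 0, with the values given above. For Igfbp5 the response of ASC1-like cells exceeded that of ASC2-like cells by 2.47 in COLD (SE 0.56; adjusted p = 0.0134) and by 3.11 in CL (SE 0.56; adjusted p = 0.0166), calls that were lost without COLD replicate 2 and without either CL replicate respectively. The shares of clusters 0 and 4 in ASC1-like cells moved with the treatments, and their part in the Igfbp3 and Igfbp5 differences was not tested.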

How the results depend on the processing

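The tool, the filter and single libraries changed counts of called members, of which the main analysis gave 0 in each Lin- class. DESeq2 gave 1 in ASC1-like cells in COLD and in CL against RT, and 1 in mural cells in COLD against RT and against CL, beside its counts over all genes given above. With no filter on low counts, ASC1-like cells gave 2 in CL, 1 in COLD and 1 in COLD against CL, ASC2-like cells 1, 2 and 1, VEC-like cells 2, 2 and 2, and mural cells 2, 1 and 1, and more genes were called overall in each Lin- comparison (in VEC-like cells in CL, 251 higher and 42 lower of 17398, from 0). The response differences then gave 3 for ASC1-like minus ASC2-like cells in CL, and 4 in CL and 2 in COLD for ASC1-like minus ASC3-like cells. Without the top doublet scores the latter gave 1 in CL (Igfbp3). For these response differences the number of all genes called was not taken, so the counts say little about the members alone. Capillary cells alone gave 1 in COLD, MAC1-like cells alone 0 in COLD and in CL against RT, and the Mgl2 cluster alone 0 in all 3 comparisons. Igfbp4 reversed in that cluster, to 0.37 in COLD against RT and 0.17 in COLD against CL (log2), and Igfbp5 in MAC1-like cells alone, to 4.03 (SE 12.5), where the only RT library was at 0 CPM, so that this value is no bound. The single-cluster analyses and that without shared barcodes were chosen after seeing the data. The cause was not tested.

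Leaving out 1 library at a time, where a lone library was assumed to vary like the others, gave 0 to 2 (CL) and 0 to 3 (COLD) calls against RT in ASC1-like cells, 0 to 1 for both in ASC2-like, VEC-like and mural cells, and 0 to 4 (CL against RT) and 1 to 6 (COLD against CL) in MAC-like cells. The response differences gave 0 to 3 (CL) and 2 to 6 (COLD) against ASC2-like cells, and 0 to 3 for both against ASC3-like cells. The number of all genes called within a class changed widely between these fits as well, and for the response differences it was not taken. The counts of members therefore say little about the members alone. The COLD difference of Igfbp6 in ASC1-like cells ranged from -1.13 to 3.57. With the replicate number as a block, mural cells gave 1 call in COLD (Igfbp3, adjusted p = 0.0353). MAC-like cells gave 5 in place of 4 in COLD against CL (Igfbp5 added), and no other count of members changed. That fit called more genes overall in both comparisons. In mural cells it called 58 higher and 25 lower, from 9 and 4, and in MAC-like cells 377 and 654, from 282 and 496. The pairing rests on the study's methods, and the data bear it out only in part (correlations of deviations from -0.06 to 0.38). Over all alternatives other than leaving out 1 library, 1565 values kept their side of the threshold (60 of them, with no call, changed direction), 19 lost their call, 39 gained one and 3 called values reversed. Leaving out 1 library, 980 kept their side (93 changed direction), 27 lost their call, 30 gained one and 1 reversed. Level differences between classes kept theirs, with these exceptions: in the C57 experiments alone, Igfbp2 against MAC-like and mural cells and Igf1r and Igfbp7 against VEC-like cells no longer passed, and against mural cells Igfbp4 and Igfbp6 passed at a coarser clustering and Igfbp6 passed without the top doublet scores (3.32 on the log2 scale, from 0.31).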
